A study of Mus musculus with 203 samples.

Results

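The 27 genes described here encode enzymes and regulators of cholesterol and fatty acid synthesis. They were listed by name, and each was found in the gene table through its Ensembl identifier, among 43346 identifiers in all. By role they comprise 6 genes of the mevalonate and isoprenoid steps (Hmgcs1, Mvk, Pmvk, Mvd, Idi1 and Fdps), 11 genes that take farnesyl units through squalene to cholesterol (Fdft1, Sqle, Lss, Cyp51, Tm7sf2, Msmo1, Nsdhl, Hsd17b7, Ebp, Sc5d and Dhcr7), 3 genes of sterol sensing and transport (Srebf2, Insig1 and Stard4) and 7 genes of fatty acid synthesis (Srebf1, Acly, Acaca, Fasn, Elovl6, Scd1 and Scd2). All 27 passed the filter on low counts in every fit.

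Bulk RNA-seq was performed on airway and parenchyma, separated by blunt dissection, of female BALB/c mice whose age the labels give as 18 to 20 weeks in all groups. House dust mite extract (HDM), an inhaled allergen, was given intranasally at 25 µg in 30 µL, 5 days per week for 3 weeks, with phosphate buffered saline (PBS) as control. The 3 week groups held 11 airway PBS, 10 airway HDM, 12 parenchyma PBS and 10 parenchyma HDM libraries. The 11 week groups held 10 libraries each and combined HDM (in these mice 3 times per week in weeks 4 to 11) or PBS with cigarette smoke (CS, 2 times per day for 8 weeks) or room air (AIR), and with or without dexamethasone (DEX), a synthetic glucocorticoid, in week 11. They are named PBS.AIR, HDM.AIR, PBS.CS and HDM.CS, with .DEX added where the drug was given, and each was taken from both tissues. In total 20 groups were analysed, comprising 101 libraries from airway and 1 more than that from parenchyma, with total counts from 13003154 to 40240733 and a median of 28090684. The titles number the libraries with running codes, and consecutive codes mostly hold an airway and a parenchyma library of 1 group, but the labels do not tie them to a mouse. The labels name no batch, litter or mouse, and comparisons between the tissues treat libraries as independent, so the p-values measure the spread between libraries of a group, and week cannot be told apart from any difference in handling between the 3 and 11 week sets.

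Cells make cholesterol from acetyl-CoA through mevalonate, isoprenoids and squalene, and they make fatty acids from the same precursor through malonyl-CoA. The transcription factor SREBP2, encoded by Srebf2, drives the sterol genes when sterols in the endoplasmic reticulum are low, while SREBP1, encoded by Srebf1, mainly drives the fatty acid genes, and INSIG1 holds both back when sterols are plentiful. In the lung, alveolar type II cells make large amounts of lipid for surfactant, and macrophages take up and export sterols.

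The markers of the labelled tissues were checked first. In PBS mice at 3 weeks all 5 club cell and all 6 ciliated cell markers were higher in airway, and all 10 alveolar type II markers were higher in parenchyma. All 6 smooth muscle, all 6 cardiac muscle and all 10 adipose markers were also higher in airway. The summed adipose level had a median of 369.3 CPM (read counts scaled to a common library size) in airway, with a range of 183.01 to 848.7, against 90.79 CPM in parenchyma, with a range of 81.33 to 127.3. Of the adipose list, Adipoq was at 0 in 13 libraries, Plin1 in 14 and Lep in 84. In all, 17 libraries had a summed adipose level over 3 scaled median absolute deviations above their group median, and are called adipose-rich. This limit depends on the spread of each group. Parenchyma PBS.AIR.DEX replicate 9 was over it at 189.1 CPM, with a group median of 160.3 CPM. No airway PBS.AIR.DEX library was over it, at levels up to 2176 CPM. The adipose-rich libraries include replicates 1, 7 and 8 of airway PBS.AIR, a control group. Separately, 4 airway libraries (3 week HDM replicates 2, 6 and 10, and 11 week HDM.AIR replicate 6) lay within the range of the parenchyma libraries on the second principal component. Results that changed without these libraries are given with and without them. Since whole tissue pieces were sequenced, fewer cells of a type and less RNA per cell cannot be told apart.

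In unexposed lung, the desaturases Scd1 and Scd2 were the most abundant members. To set genes side by side, CPM were divided by the kilobases of all annotated exons of the gene. That length can exceed the length of the transcript made, so the order of genes is approximate. On this scale the median level of Scd1, which introduces the double bond of oleate, was 179.5 in 3 week PBS airway and 401.1 in 11 week PBS.AIR airway. Scd2, a second desaturase with the same activity, followed at 90.36 and 102.5. Idi1, which interconverts the isoprene units, was at 34.88 and 29.05, Acly, which releases cytosolic acetyl-CoA from citrate, at 29.32 and 45.92, and Hmgcs1, which makes HMG-CoA, at 29.02 and 28.21. At the other end were Tm7sf2 and Hsd17b7, which reduce sterol intermediates, at 1.86 and 1.889 in 3 week PBS airway, and the last enzyme of the pathway, Dhcr7, at 2.092. The spread over libraries was wide for Scd1, which ran from 806.9 through a median of 1962 to 2804 CPM in PBS.AIR airway and from 426.6 through 1575 to 1918 CPM in PBS.AIR parenchyma.

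By size, the largest differences between the tissues at baseline were those of fatty acid genes. In 3 week PBS mice, 7 members were higher and 6 lower in airway than in parenchyma by limma-voom with Benjamini-Hochberg adjustment, against 56.1% of all genes tested passing in either direction. In 11 week PBS.AIR mice 7 were higher and 4 lower, against 56.4% of all genes. The members that passed, 48.1% and 40.7% of the list, included 5 of the 7 fatty acid genes at 3 weeks and 6 at 11 weeks. Elovl6, which lengthens palmitate to stearate, ran from 9.34 through a median of 19.9 to 52.4 CPM in 3 week PBS airway and from 5.86 through 7.53 to 9.93 CPM in parenchyma. At 11 weeks it ran from 21.6 through 38.6 to 123.4 CPM in airway and from 6.09 through 8.06 to 9.62 CPM in parenchyma, so that the groups overlapped slightly at 3 weeks and not at 11 weeks. The log2 fold change (log2FC), airway less parenchyma, was 1.47 (SE 0.24, adjusted p = 2.27e-06) at 3 weeks and 2.65 (SE 0.35, adjusted p = 3.04e-11) at 11 weeks. Fasn, the fatty acid synthase, was higher in airway by a log2FC of 0.73 and 1.09 at the same time points, Acaca, the acetyl-CoA carboxylase that commits carbon to fatty acids, by 0.65 and 1.06, and Scd1 by 0.48 and 0.86. Scd2 went the other way, with a log2FC of -0.69 at 3 weeks and -0.99 at 11 weeks. In PBS.AIR mice it ran from 324.3 through 560.3 to 809.5 CPM in airway and from 864.2 through 1087 to 1457 CPM in parenchyma, with no overlap. Of the sterol genes, Ebp, the sterol isomerase, was higher in airway by a log2FC of 0.39 and 0.56, and Stard4, which carries cholesterol between membranes, was lower by a log2FC of -0.39 and -0.54. The adipose markers stood above parenchyma in the same airway libraries, and their part in the airway excess of the fatty acid genes was not tested.

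With 3 weeks of HDM, Mvd and Dhcr7 rose most among the 27 genes, in both tissues. Mvd encodes mevalonate diphosphate decarboxylase, the step that makes isopentenyl diphosphate, and Dhcr7 encodes the reductase that turns 7-dehydrocholesterol into cholesterol. On mm10, Mvd lies on the minus strand at chr8:122433601-122443422 and Dhcr7 on the plus strand at chr7:143823145-143848410. Mvd ran from 8.9 through a median of 12 to 15.7 CPM in PBS airway and from 12.4 through 29.4 to 40.1 CPM in HDM airway. In parenchyma it ran from 10.7 through 13.9 to 16.5 CPM with PBS and from 39.7 through 44 to 52.5 CPM with HDM. All 10 HDM parenchyma libraries, and 9 of 10 HDM airway libraries, were above every PBS library of their tissue. The log2FC was 1.22 (SE 0.13, adjusted p = 8.25e-11) in airway and 1.63 (SE 0.13, adjusted p = 1.12e-14) in parenchyma. Dhcr7 ran from 11 through 12.2 to 15.7 CPM in PBS airway and from 11.8 through 30.5 to 43 CPM in HDM airway. In parenchyma it ran from 11.3 through 13.3 to 15.4 CPM with PBS and from 32.7 through 37.8 to 44.7 CPM with HDM, with the same separation as for Mvd. The log2FC was 1.06 (SE 0.12, adjusted p = 5.41e-10) in airway and 1.46 (SE 0.13, adjusted p = 1.54e-13) in parenchyma. The HDM airway library that was low for both genes, replicate 4, also had the lowest summed level of the 10 alveolar type II markers in its group, 4238 CPM against a group median of 13958 CPM. Replicate 4 was also among the adipose-rich libraries, with a summed adipose level of 500.3 CPM against a group median of 145.5 CPM. The part of these differences in the level of Mvd and Dhcr7 was not tested.

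**Figure D1:**
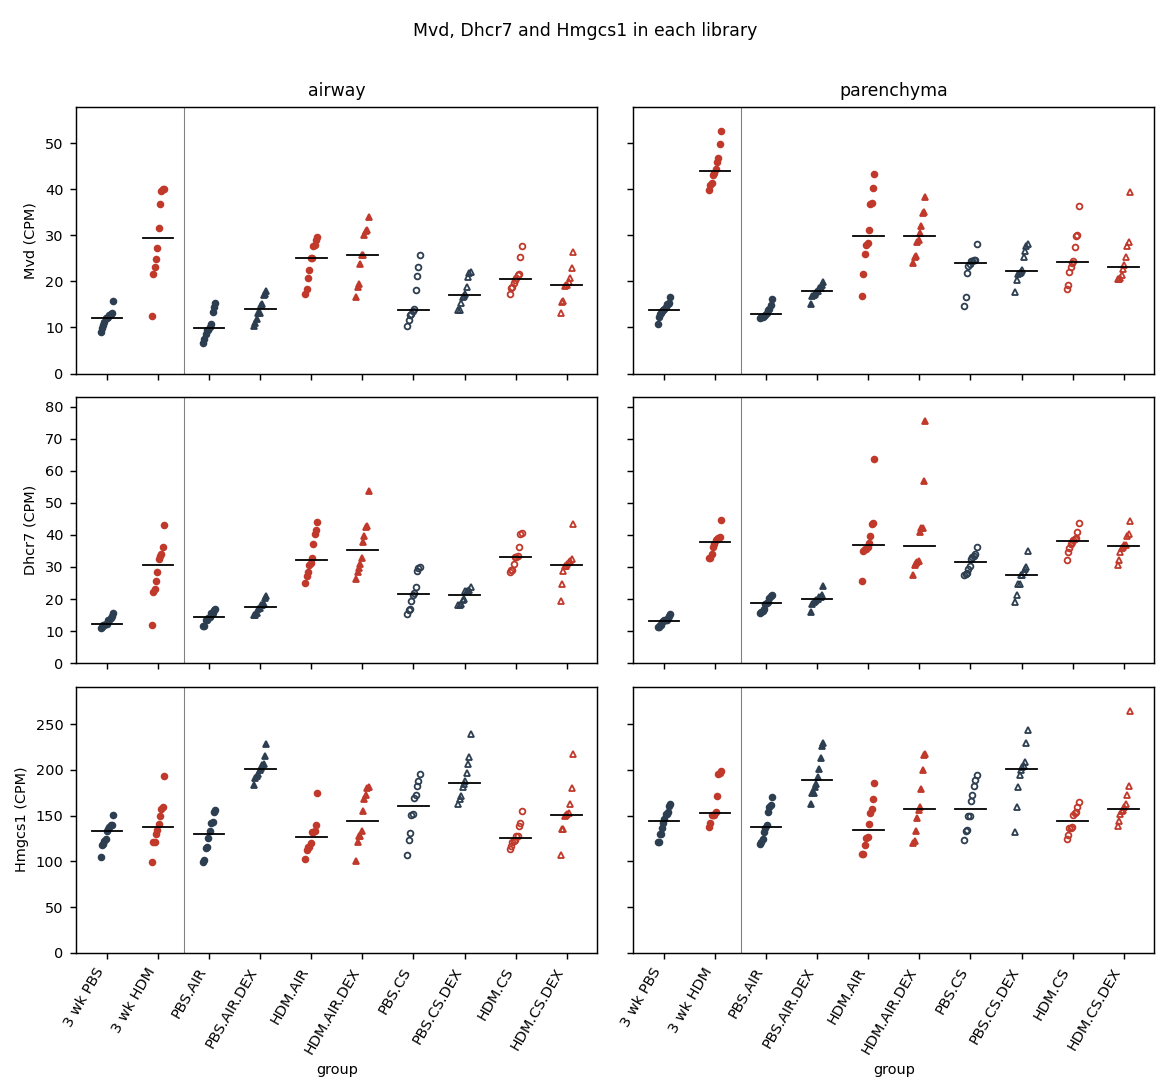
Normalised level (CPM, vertical axis from 0) of Mvd, Dhcr7 and Hmgcs1 in each library by group, airway on the left and parenchyma on the right. Each symbol is 1 library and each bar the group median; red marks HDM, open symbols CS and triangles DEX, and the vertical line separates 3 from 11 weeks. Mvd and Dhcr7 stand higher in the HDM groups, with 3 week parenchyma medians of 44 and 37.8 CPM against 13.9 and 13.3 CPM, while Hmgcs1 is highest in the groups given DEX without HDM, with medians of 201.3 CPM in airway PBS.AIR.DEX and 188.7 CPM in parenchyma PBS.AIR.DEX.

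Over the whole list, 11 members rose and 6 fell in airway and 14 rose and 1 fell in parenchyma with 3 weeks of HDM. These counts, 63% and 55.6% of the members, were below the share of all genes that passed in the same comparisons, 74.6% in airway and 77.7% in parenchyma. The members that rose, 40.7% and 51.9%, stood against 34.1% and 33.4% of all genes. With a limit of 1 on the absolute log2FC, 2 members passed in each tissue, against 24% of all genes in airway and 29.6% in parenchyma. The median log2FC over the members was 0.07 in airway and 0.24 in parenchyma, against -0.07 and -0.13 over all genes tested, so that the middle of all genes in parenchyma was shifted by more than 0.1 below 0. The count in airway ranged from 15 to 19 and that in parenchyma from 14 to 21 as single libraries were left out.

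The other sterol genes moved unevenly. Of the 11 genes from squalene to cholesterol, 7 rose and 2 fell in airway and 7 rose and none fell in parenchyma. Nsdhl, a sterol dehydrogenase that helps remove the C4 methyl groups, ran from 11.4 through 16.5 to 28 CPM with PBS and from 25.9 through 33.6 to 37.7 CPM with HDM in parenchyma. Its log2FC was 0.95 (SE 0.11, adjusted p = 1.72e-10) there and 0.54 (SE 0.10, adjusted p = 1.25e-05) in airway. Hsd17b7 rose by a log2FC of 0.56 in airway and 0.61 in parenchyma, Sc5d, which adds the C5 double bond, by 0.56 and 0.61, Cyp51, the lanosterol demethylase, by 0.47 and 0.56, and Sqle, which oxidises squalene, by 0.22 and 0.47. In parenchyma, the HDM libraries lay above all PBS libraries for 9 members, against 20.3% of all genes, namely Mvd, Sqle, Cyp51, Hsd17b7, Sc5d, Dhcr7, Srebf2, Acly and Fasn. Fdft1, the squalene synthase, fell in airway, with a log2FC of -0.18 (SE 0.08, adjusted p = 0.0423), and had a log2FC of 0.07 (adjusted p = 0.409) in parenchyma. Ebp fell in airway by a log2FC of -0.27 and rose in parenchyma by 0.13. In the mevalonate steps, Fdps, which makes farnesyl diphosphate, rose by a log2FC of 0.34 and 0.54, and Pmvk, the phosphomevalonate kinase, fell in airway, with -0.24. Hmgcs1, Mvk and Idi1 passed in neither tissue. The largest difference among these 3 genes was that of Hmgcs1 in parenchyma, with a log2FC of 0.14 (SE 0.08, adjusted p = 0.0911), and Hmgcs1 ran from 105.1 through 133.3 to 150.6 CPM in PBS airway and from 99.7 through 137.9 to 192.9 CPM in HDM airway.

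To show what lies upstream of the genes that rose most, and of a sterol gene that did not, the windows before the transcription start of Mvd, Dhcr7, Hmgcs1 and Fasn were read from RefSeq on GRCm38.p6. Of the 27 members, 21 had an entry, with 26 promoter windows of 300 bases in all, reaching 250 bases upstream and 50 downstream of a start. Fdps, Fdft1, Sqle, Scd1, Scd2 and Stard4 had none. The sequences stand 5′ to 3′ on the strand of the gene and end at the start site or, for Dhcr7, 22 bases before it. They lie at chr8:122443423-122443672 on the minus strand for Mvd, chr7:143822917-143823144 on the plus strand for Dhcr7, chr13:119690101-119690350 on the plus strand for Hmgcs1 and chr11:120824548-120824797 on the minus strand for Fasn, all upstream of the first exon. Capitals mark the sterol regulatory element TCACNCCAC, the E-box CACGTG, the CCAAT box and the GC box GGGCGG, each searched on both strands, so that ATTGG and CCGCCC are the CCAAT box and the GC box on the other strand.
Mvd: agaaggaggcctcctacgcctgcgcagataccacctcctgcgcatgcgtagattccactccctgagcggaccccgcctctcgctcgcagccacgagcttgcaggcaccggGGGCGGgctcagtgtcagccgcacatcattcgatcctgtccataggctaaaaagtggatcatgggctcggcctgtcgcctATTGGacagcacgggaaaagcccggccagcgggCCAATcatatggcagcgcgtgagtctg
Dhcr7: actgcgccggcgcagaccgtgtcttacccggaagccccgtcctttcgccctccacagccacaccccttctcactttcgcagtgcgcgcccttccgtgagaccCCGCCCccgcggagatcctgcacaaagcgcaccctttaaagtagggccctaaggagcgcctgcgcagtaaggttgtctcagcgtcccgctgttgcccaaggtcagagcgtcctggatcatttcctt
Hmgcs1: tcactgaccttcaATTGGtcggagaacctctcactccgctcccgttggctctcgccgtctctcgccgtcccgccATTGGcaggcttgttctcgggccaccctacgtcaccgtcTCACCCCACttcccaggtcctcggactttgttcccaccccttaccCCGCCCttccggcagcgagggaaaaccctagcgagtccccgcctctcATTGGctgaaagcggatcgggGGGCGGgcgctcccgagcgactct
Fasn: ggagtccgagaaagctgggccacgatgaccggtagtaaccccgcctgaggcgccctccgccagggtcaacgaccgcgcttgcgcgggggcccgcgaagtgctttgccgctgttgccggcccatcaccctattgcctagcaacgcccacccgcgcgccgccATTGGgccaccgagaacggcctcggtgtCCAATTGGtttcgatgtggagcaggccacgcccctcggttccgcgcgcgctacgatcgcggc

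The Mvd window held a CCAAT box on each strand, at 60 and 27 bases before the start, and a GC box at 140 bases. The Hmgcs1 window held the sterol regulatory element, with 3 CCAAT boxes and 2 GC boxes upstream of the start. In the Fasn window a CCAAT box and its reverse overlapped in the letters CCAATTGG. The printed stretch of Dhcr7 held a GC box alone, and other Dhcr7 start sites held the E-box, CCAAT boxes and further GC boxes. Over the 26 member windows, 20 held a CCAAT box (76.9%, against 37.4% of all 32851 windows), 19 a GC box (73.1%, against 35.7%), 4 an E-box (15.4%, against 7.15%) and 1 the sterol regulatory element (3.85%, against 1.24%). A match of letters describes the window and is not a measured binding site.

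Of the sterol sensing genes, Srebf2 rose with 3 weeks of HDM in both tissues. It ran from 73 through a median of 79.9 to 88.2 CPM in PBS airway and from 93.3 through 120 to 142.5 CPM in HDM airway. The parenchyma levels ran from 52.8 through 70.8 to 88.7 CPM and from 105.7 through 110 to 142.3 CPM, again with no overlap. The log2FC was 0.51 (SE 0.07, adjusted p = 3.77e-08) in airway and 0.65 (SE 0.07, adjusted p = 4.2e-11) in parenchyma. Insig1 fell in airway, with a log2FC of -0.30 (SE 0.11, adjusted p = 0.0114), and had -0.17 (adjusted p = 0.151) in parenchyma. Stard4 passed in neither tissue.

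Of the 7 fatty acid genes, 1 rose and 2 fell in airway and 4 rose and 1 fell in parenchyma. Fasn ran from 92.7 through 112.24 to 122.4 CPM in PBS parenchyma and from 158.3 through 192.07 to 235 CPM in HDM parenchyma, with a log2FC of 0.70 (SE 0.11, adjusted p = 2.2e-07). In airway the groups overlapped, at medians of 175.08 and 201.7 CPM and a log2FC of 0.07 (adjusted p = 0.594). Acly rose by a log2FC of 0.31 in parenchyma, Acaca by 0.24 and Elovl6 by 0.64. Scd2 fell in both tissues, with a log2FC of -0.56 (SE 0.17, adjusted p = 0.00308) in airway and -0.91 (SE 0.17, adjusted p = 6.05e-06) in parenchyma. In parenchyma it ran from 488.7 through 890.4 to 1051 CPM with PBS and from 327.8 through 481.0 to 549.5 CPM with HDM, so that the ranges overlapped, with 5 of 10 HDM libraries below every PBS library. In the same parenchyma libraries the summed alveolar type II level had a median of 29485 CPM with PBS and 22827 CPM with HDM, and 2 of its 10 markers rose and 4 fell. Their part in the lower Scd2 was not tested.

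The HDM effect itself differed between the tissues for 6 members, all with a lower value in airway, against 17.3% of all genes. They were Elovl6, with a difference in log2FC of -1.01 (SE 0.33, adjusted p = 0.0306), Fasn with -0.63, Scd1 with -0.60, Acaca with -0.45, Nsdhl with -0.41 and Ebp with -0.41. The count ran from 4 to 11 as single libraries were left out, with 11 without airway HDM replicate 9, and Elovl6 did not pass without the 4 airway libraries close to parenchyma, with -0.92, or with all libraries in one fit, with -1.03. Over the same comparison in airway, 7 of 10 adipose markers fell and none rose, with the summed level from 114.4 through 145.5 to 523.6 CPM in HDM airway, and the part of adipose RNA in these differences was not tested. All 8 cell cycle markers and all 8 markers of monocytes and recruited macrophages rose in both tissues, and their part in the rise of Mvd, Dhcr7 and the other sterol genes was not tested.

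At 11 weeks Mvd and Dhcr7 again rose most among the sterol genes with HDM. In HDM.AIR against PBS.AIR, Mvd ran from 17.2 through 25.1 to 29.5 CPM against 6.61 through 9.82 to 15.3 CPM in airway, and from 16.8 through 29.8 to 43.3 CPM against 12.1 through 12.9 to 16.2 CPM in parenchyma. The log2FC was 1.24 (SE 0.14, adjusted p = 1.68e-13) in airway and 1.23 (SE 0.14, adjusted p = 1.84e-14) in parenchyma. Dhcr7 ran from 25 through 32.1 to 44 CPM against 11.6 through 14.3 to 16.8 CPM in airway, and from 25.6 through 36.8 to 63.6 CPM against 15.7 through 18.7 to 21.3 CPM in parenchyma, with a log2FC of 1.24 (SE 0.12, adjusted p = 4.1e-18) and 1.15 (SE 0.12, adjusted p = 6.57e-17). Neither gene overlapped between the groups in either tissue. Cyp51 rose by a log2FC of 0.57 in airway and 0.68 in parenchyma, and Hmgcs1 had 0.02 in both, with adjusted p = 0.868 and adjusted p = 0.862. In all, 9 members rose and 3 fell in airway, against 61.1% of all genes passing in either direction, and 13 rose and 1 fell in parenchyma, against 59.5%. The airway count was 7 (4 rose and 3 fell) without the adipose-rich libraries. Of the genes that rose, 7 were shared (Cyp51, Dhcr7, Fdps, Mvd, Nsdhl, Sc5d and Tm7sf2), 77.8% of those of airway and 53.8% of those of parenchyma. The matching overlap over all genes was not computed. As at 3 weeks, all 8 cell cycle and all 8 monocyte and recruited macrophage markers rose in both tissues. Of the 10 alveolar type II markers, 8 rose in airway and 5 in parenchyma. Their summed level had a median of 14635 CPM in PBS.AIR and 17370 CPM in HDM.AIR in airway. In parenchyma the medians were 25247 and 24213 CPM. The part of these markers in the HDM effect was not tested.

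The fatty acid genes again split by tissue. Elovl6 in airway ran from 21.6 through 38.6 to 123.4 CPM in PBS.AIR and from 9.52 through 12.3 to 16.5 CPM in HDM.AIR, with no overlap and a log2FC of -1.88 (SE 0.30, adjusted p = 2.58e-08). In parenchyma it ran from 6.09 through 8.06 to 9.62 CPM and from 6.94 through 9.26 to 10.9 CPM, with a log2FC of 0.28 (adjusted p = 0.564). Acaca fell in airway from a median of 112.04 to 65.8 CPM, with a log2FC of -0.81 (SE 0.20, adjusted p = 0.000276), and had medians of 60 and 63.9 CPM in parenchyma. Fasn rose in parenchyma from a median of 210 to 321 CPM, with a log2FC of 0.84 (SE 0.20, adjusted p = 0.000135), and had -0.30 (adjusted p = 0.206) in airway. Scd1 rose in parenchyma, with a log2FC of 1.2006 (SE 0.26, adjusted p = 2.63e-05), and had 0.08 (adjusted p = 0.816) in airway. Tested directly, the HDM effect differed between the tissues for 9 members, 7 with a lower and 2 with a higher value in airway, against 27.6% of all genes. The largest differences in log2FC were -2.16 for Elovl6, -1.14 for Fasn, -1.12 for Scd1 and -1.03 for Acaca, and that of Scd2 was 0.70. Without the adipose-rich libraries 5 members passed, all with a lower value in airway. Neither of the 2 members with a higher value, Scd2 among them, then passed in that direction. Scd1, with -1.01, did not pass without those libraries either, nor did it by edgeR, with -0.91. In airway the summed adipose level ran from 288.7 through 450.7 to 1682 CPM in PBS.AIR and from 122.8 through 171.8 to 263.9 CPM in HDM.AIR, and 8 of 10 adipose markers fell. In parenchyma it ran from 111.9 through 131.9 to 161.7 CPM and from 101.9 through 117.1 to 136.7 CPM. The part of adipose RNA in the airway values was not tested.

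**Figure D2:**
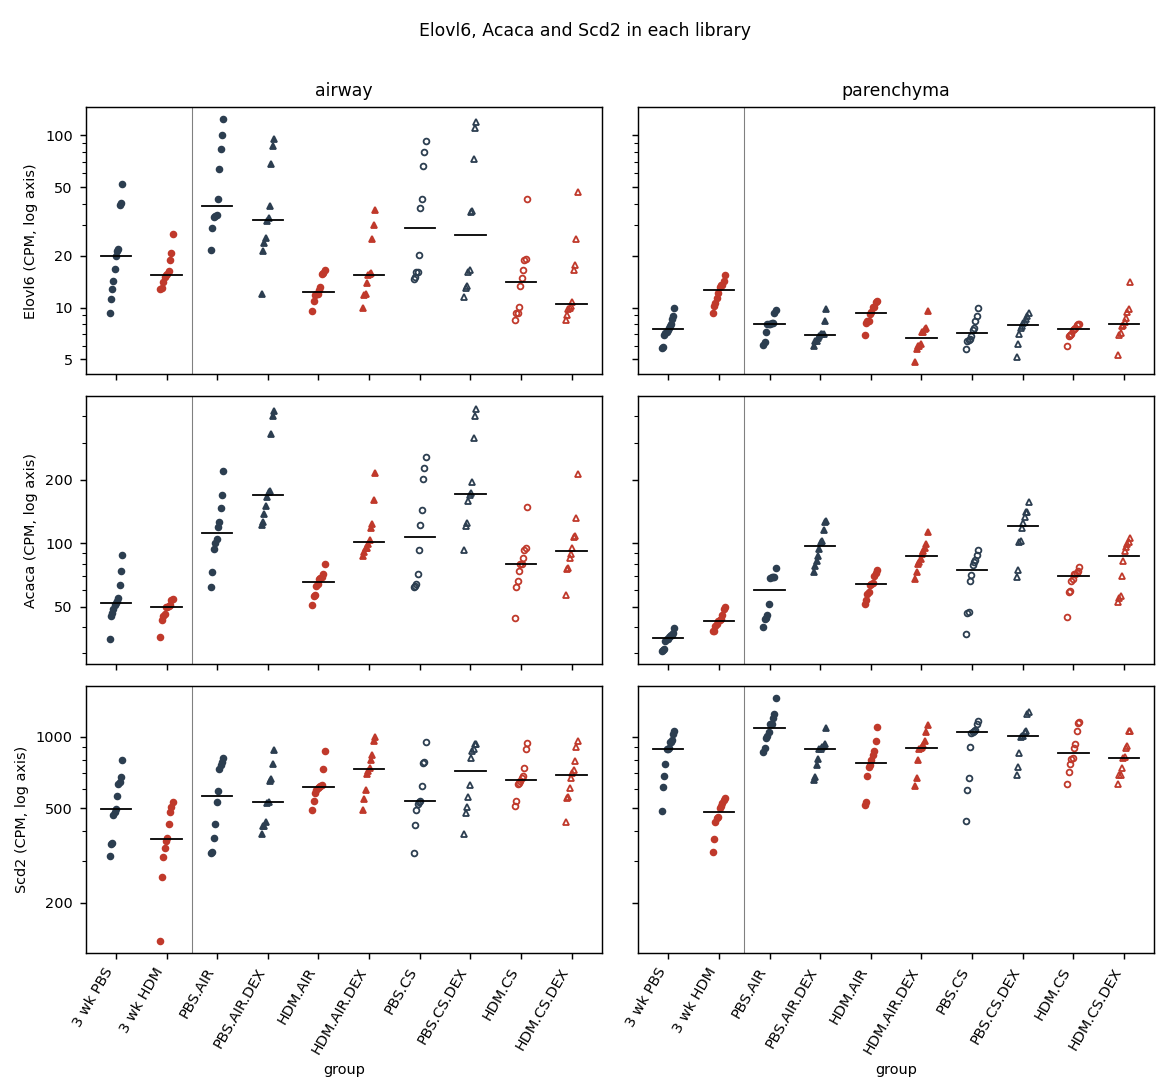
Normalised level (CPM, log axis) of Elovl6, Acaca and Scd2 in each library by group, airway on the left and parenchyma on the right. Each symbol is 1 library and each bar the group median; red marks HDM, open symbols CS and triangles DEX. Elovl6 in airway falls from a median of 38.6 CPM in PBS.AIR to 12.3 CPM in HDM.AIR, all parenchyma medians of Elovl6 lie between 6.64 and 12.7 CPM, and Scd2 is lower in 3 week HDM parenchyma (481.0 CPM) than in PBS parenchyma (890.4 CPM).

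Between the weeks, the HDM effect at 11 weeks less that at 3 weeks differed for 4 members in airway, 1 higher and 3 lower, against 28.4% of all genes, and for 8 in parenchyma, 2 higher and 6 lower, against 42.4%. In airway these were Elovl6, with a difference in log2FC of -1.57, Acaca with -0.65, Srebf2 with -0.31 and Scd2 with 0.75. In parenchyma the lowest were Srebf2 and Nsdhl, each with -0.68, and Hsd17b7 with -0.63, and the higher ones were Scd1 with 0.79 and Ebp with 0.24. Scd1 did not pass by edgeR, with 0.60, or DESeq2, with 0.61, and with no filter on low counts neither Scd1, with 0.75, nor Ebp, with 0.20, passed. Srebf2 in 11 week parenchyma had medians of 122.9 CPM in PBS.AIR and 125.4 CPM in HDM.AIR, against 70.8 and 110 CPM at 3 weeks, and the gap between the PBS levels of the time points was not tested. Time point and handling cannot be told apart here.

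With cigarette smoke and no HDM some sterol genes of the 27 rose, with Dhcr7 and Mvd again in front. In PBS.CS against PBS.AIR, 8 members rose and 1 fell in airway, 33.3% of the list against 13.7% of all genes. In parenchyma 11 rose and none fell, which was 40.7% of the list and near the 35.9% of all genes. With sample quality weights 18 passed in parenchyma (17 rose and 1 fell), and with no filter on low counts 5 passed in airway (4 rose and 1 fell). The comparisons at 11 weeks against PBS.AIR share that control group. Dhcr7 rose from a median of 14.3 to 21.6 CPM in airway, with a range in PBS.CS of 15.4 to 29.9 CPM, and from 18.7 to 31.5 CPM in parenchyma, where the PBS.CS range of 27.6 to 36.2 CPM lay above all PBS.AIR libraries. The log2FC was 0.60 (SE 0.12, adjusted p = 9.84e-05) and 0.79 (SE 0.12, adjusted p = 1.14e-08). Mvd rose by 0.60 (adjusted p = 0.00218) and 0.76 (adjusted p = 5.69e-06), with PBS.CS medians of 13.8 and 24.1 CPM. Scd1 in parenchyma ran from 1381 through 2681 to 3826 CPM in PBS.CS, with a log2FC of 1.29 (SE 0.26, adjusted p = 2.43e-05). Hsd17b7 rose by a log2FC of 0.43 in airway, and Ebp was the member that fell there, by -0.23. Without the adipose-rich libraries 2 members passed in airway, 1 in each direction, and Mvd, with 0.40, and Hsd17b7, with 0.33, did not. The 2 tissues differed in the CS effect for Ebp alone, with a difference in log2FC of -0.43 (SE 0.09, adjusted p = 0.00113), against 3.73% of all genes. With neighbouring running codes as a block, Scd1, with -0.98, and Stard4, with 0.33, also passed. With smoke, 7 of 8 monocyte and recruited macrophage markers rose in airway and 6 in parenchyma, 1 and 8 of 8 cell cycle markers rose, and 5 of 10 alveolar type II markers rose in each tissue. Their part in the rise of the sterol genes was not tested.

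With HDM and smoke together, Mvd, Dhcr7 and some other members rose by less than the sum of their log2FC with each alone. In HDM.CS against PBS.AIR, 7 members rose and 3 fell in airway, against 49% of all genes, and 11 rose and 1 fell in parenchyma, against 47.4%. The airway count was 4 (2 rose and 2 fell) without the adipose-rich libraries, and 6 (5 rose and 1 fell) with no filter on low counts or with sample quality weights. Dhcr7 rose by a log2FC of 1.23 in airway and 1.09 in parenchyma, and Mvd by 1.04 and 0.94. The largest rise in parenchyma was that of Scd1, with a log2FC of 1.41 and 9 of 10 HDM.CS libraries above all PBS.AIR libraries. The largest change in airway was the fall of Elovl6, with a log2FC of -1.76. The median of Dhcr7 was 33.1 CPM in airway HDM.CS, beside 32.1 CPM in HDM.AIR and 21.6 CPM in PBS.CS, and 38.1 CPM in parenchyma HDM.CS, beside 36.8 and 31.5 CPM. The interaction, the log2FC of HDM with smoke less that with air, passed for 4 members in airway, all below 0 (Mvd, Cyp51, Dhcr7 and Sc5d). These were 14.8% of the list, below the 19.1% of all genes. In parenchyma the interaction passed for 11 members, all below 0, which was 40.7% of the list and near the 36% of all genes. For Mvd it was -0.80 (SE 0.20, adjusted p = 0.00159) in airway and -1.05 (SE 0.19, adjusted p = 1.99e-06) in parenchyma, for Dhcr7 -0.62 and -0.85, for Cyp51 -0.62 and -0.59, and for Scd1 in parenchyma -1.08 (SE 0.38, adjusted p = 0.0175). Between HDM.CS and HDM.AIR no member passed in airway by limma-voom, edgeR or DESeq2, with 2 at an unadjusted p under 0.05, against 16.2% of all genes. In parenchyma Ebp alone passed, with a log2FC of -0.21 (SE 0.06, adjusted p = 0.00739), against 24.1% of all genes.

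Dexamethasone in mice without HDM or smoke raised most of the 27 genes. In PBS.AIR.DEX against PBS.AIR, 17 rose and none fell in airway, where 14.9% of all genes passed and 8.03% rose, and 17 rose and none fell in parenchyma, where 22.6% passed and 10.6% rose. The median log2FC over the members was 0.40 in each tissue, against 0.01 over all genes in airway and -0.01 in parenchyma. Both tissues shared 14 of these genes, 82.4% of each set. They were Acaca, Cyp51, Fasn, Fdft1, Fdps, Hmgcs1, Hsd17b7, Idi1, Insig1, Msmo1, Mvd, Nsdhl, Sc5d and Sqle. The matching overlap over all genes was not computed. Lss, Srebf2 and Tm7sf2 passed in airway and not in parenchyma, and Acly, Ebp and Scd1 the reverse. The difference between the tissues was tested directly, and no member passed by limma-voom, edgeR or DESeq2, with 1 at an unadjusted p under 0.05, against 0.279% of all genes. With neighbouring running codes as a block Ebp passed, with a difference in log2FC of -0.29 (SE 0.07, adjusted p = 0.00671).

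Hmgcs1 had the lowest adjusted p in airway. In airway it ran from 99.3 through 129.6 to 156.5 CPM in PBS.AIR and from 183.4 through 201.3 to 228.8 CPM in PBS.AIR.DEX, with no overlap and a log2FC of 0.68 (SE 0.10, adjusted p = 2.02e-07). In parenchyma its range was 118.8 through 138.1 to 170.3 CPM and 162.7 through 188.7 to 229.6 CPM, with a log2FC of 0.46 (SE 0.10, adjusted p = 0.00026). Sqle in parenchyma ran from 28.1 through 34.9 to 42.8 CPM and from 47.6 through 54.9 to 62.8 CPM, with no overlap and a log2FC of 0.69 (SE 0.12, adjusted p = 1.76e-06), and it rose by 0.47 in airway. Acaca in parenchyma ran from 40 through 60 to 76 CPM and from 73.1 through 97.6 to 127.07 CPM, with a log2FC of 0.79 (SE 0.20, adjusted p = 0.0016). In airway, where its PBS.AIR.DEX libraries spread from 122.7 through 170 to 427 CPM, the log2FC was 0.81 (SE 0.21, adjusted p = 0.00378). Fasn rose by 0.67 in airway and 0.71 in parenchyma. In parenchyma all PBS.AIR.DEX libraries lay above all PBS.AIR libraries for 5 members (Fdft1, Sqle, Msmo1, Acly and Fasn), against 2.14% of all genes, and in airway for 2 members (Hmgcs1 and Nsdhl), against 0.225%. Dhcr7, among the genes that rose most with HDM, did not pass here, with a log2FC of 0.31 (SE 0.13, adjusted p = 0.0843) in airway and 0.13 (SE 0.12, adjusted p = 0.502) in parenchyma, and Mvd rose by 0.45 and 0.42.

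In the same comparison 9 of the 10 alveolar type II markers rose and none fell in either tissue. Their summed level ran from 7402 through 14635 to 24616 CPM in PBS.AIR and from 12741 through 17484 to 31173 CPM in PBS.AIR.DEX in airway. In parenchyma it ran from 21936 through 25247 to 33724 CPM and from 34786 through 39213 to 42327 CPM. The T cell markers fell, 6 of 6 in airway and 4 of 6 in parenchyma, as did 5 of 6 B cell and plasma cell markers in each tissue. The part of these shifts in the rise of the sterol genes was not tested. When the adipose-rich libraries were left out, 14 members rose in airway and 16 in parenchyma.

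**Figure D3:**
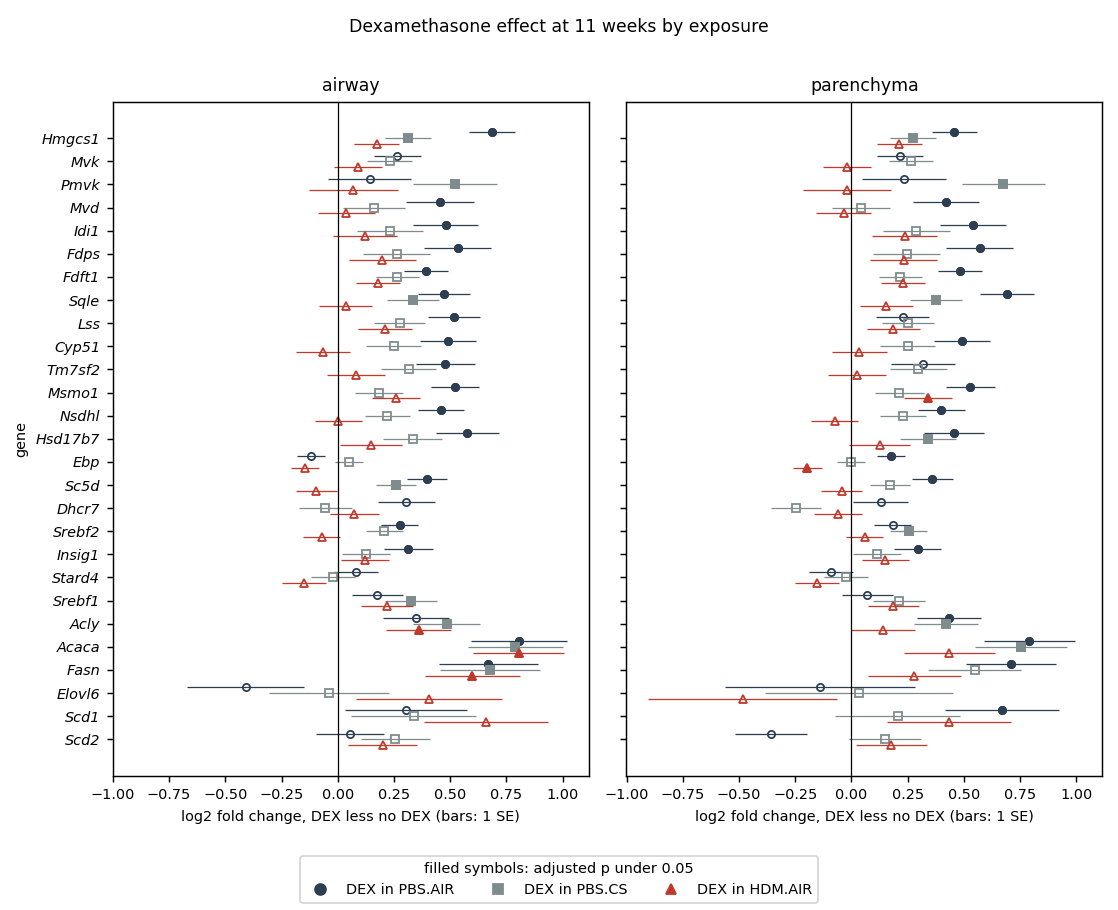
Log2 fold change with DEX (horizontal axis, DEX less no DEX, bars 1 SE) for each of the 27 genes at 11 weeks in PBS.AIR (dark circles), PBS.CS (grey squares) and HDM.AIR (red triangles), airway on the left and parenchyma on the right. Filled symbols mark an adjusted p under 0.05. In PBS.AIR 17 genes are filled in each tissue; in HDM.AIR 3 are filled in airway and 2 in parenchyma.

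In mice given HDM, fewer members passed with DEX. In HDM.AIR.DEX against HDM.AIR, 3 members rose and none fell in airway, against 28.6% of all genes, and 1 rose and 1 fell in parenchyma, against 28.5%. The 3 airway genes belong to fatty acid synthesis. Acaca ran from 50.7 through 65.8 to 79.5 CPM in HDM.AIR and from 87 through 101 to 216 CPM in HDM.AIR.DEX, with no overlap and a log2FC of 0.80 (SE 0.20, adjusted p = 0.000974). Fasn rose by 0.60 (adjusted p = 0.0224) and Acly by 0.36 (adjusted p = 0.0477). Without the adipose-rich libraries Fasn had 0.49 and Acly 0.28, and neither passed, and Acly also did not pass by edgeR or DESeq2, with 0.37 by each. Nor did Acly pass without the airway libraries close to parenchyma, with 0.36. In parenchyma Msmo1, a C4 sterol oxidase, rose by 0.34 (adjusted p = 0.0101, but did not pass with sample quality weights, with 0.27) and Ebp fell by a log2FC of -0.20 (adjusted p = 0.0119). Hmgcs1 had a log2FC of 0.17 (adjusted p = 0.206) in airway and 0.21 (adjusted p = 0.103) in parenchyma, and Mvd 0.04 and -0.03. The median of Mvd stayed near 25 CPM in airway, at 25.1 and 25.7 CPM, and that of Dhcr7 was 32.1 and 35.4 CPM. Over the same comparison all 8 cell cycle markers fell in both tissues, and 8 of 10 alveolar type II markers rose in airway and 7 in parenchyma.

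With smoke alone the number of members that passed with DEX depended on the fit. In PBS.CS.DEX against PBS.CS, 8 members rose and none fell in airway, against 11.3% of all genes, and 7 rose and none fell in parenchyma, against 16.9%. In parenchyma 18 passed (17 rose and 1 fell) with sample quality weights and 4 with no filter on low counts. Acaca led, with a log2FC of 0.79 in airway and 0.75 in parenchyma, followed in airway by Fasn with 0.68 and Pmvk with 0.52, and in parenchyma by Pmvk with 0.68 (SE 0.19, adjusted p = 0.00513) and Acly with 0.42. Pmvk in parenchyma ran from 21.5 through 26.8 to 38.7 CPM in PBS.CS and from 19.1 through 49.7 to 74.2 CPM in PBS.CS.DEX, so that its spread widened and the groups overlapped. In airway 3 passed with no filter and 4 without the shallowest library. With the adipose-rich libraries left out 3 members passed in airway, and Acaca, with 0.51, Fasn, with 0.37, and Pmvk, with 0.50, did not. With HDM and smoke together no member passed by limma-voom, edgeR or DESeq2 in either tissue, with 4 at an unadjusted p under 0.05 in each, against 9.30% of all genes in airway and 7.86% in parenchyma. In that parenchyma group DEX replicate 8 was the highest library for 14 members by a wide gap, and no member passed without it. In airway 4 members rose once the adipose-rich libraries were left out.

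Whether the DEX effect differed by exposure was tested with contrasts chosen after the values had been seen. The effect in HDM.AIR was below that in PBS.AIR for 4 members in airway, against 4.62% of all genes. These were Cyp51 (-0.56, SE 0.17, adjusted p = 0.0389), Hmgcs1 (-0.51, SE 0.14, adjusted p = 0.0175), Sc5d (-0.49, SE 0.13, adjusted p = 0.00842) and Nsdhl (-0.46, SE 0.15, adjusted p = 0.0465). In parenchyma it was below for 4 members, Sqle with -0.54, Nsdhl with -0.47, Sc5d with -0.40 and Ebp with -0.37, against 12.4% of all genes. Leaving out the adipose-rich libraries, no airway member passed by limma-voom, with Cyp51 at -0.43, Hmgcs1 at -0.37 and Sc5d at -0.35. Cyp51 also did not pass without the airway libraries close to parenchyma, with -0.51. The effect in PBS.CS differed from that in PBS.AIR for no member in either tissue by limma-voom, edgeR or DESeq2, with 3 in airway and 4 in parenchyma at an unadjusted p under 0.05, against 0.0822% and 3.22% of all genes. These comparisons share the PBS.AIR and PBS.AIR.DEX libraries.

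**Figure D4:**
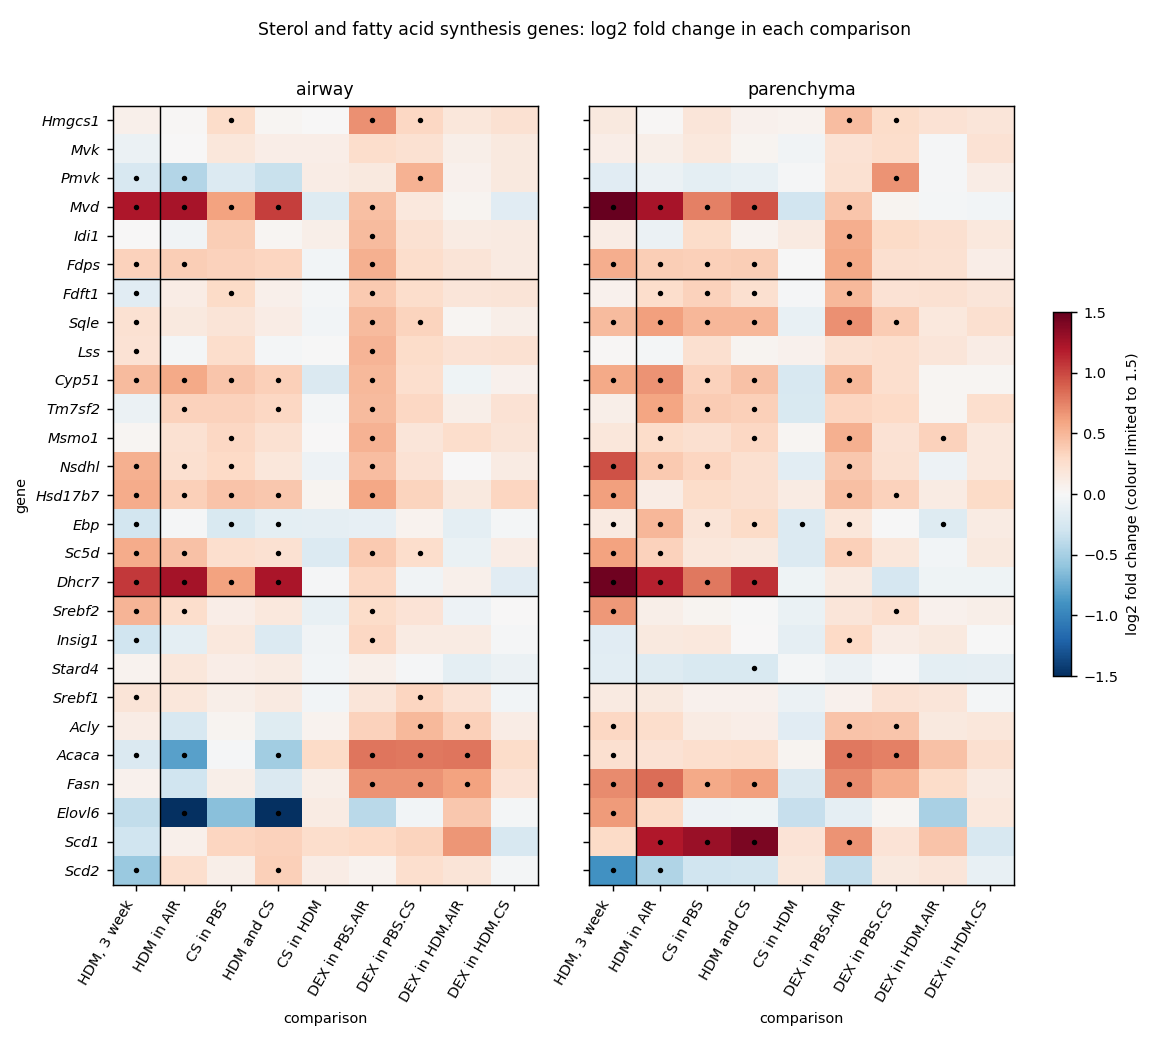
Log2 fold change of the 27 genes (rows, with lines between the 4 roles) in each comparison (columns, with a line between 3 and 11 weeks) in airway and parenchyma. Red marks higher and blue lower levels with the named exposure, the colour stops at 1.5 on either side, and a dot marks an adjusted p under 0.05. Mvd and Dhcr7 are dark red in the HDM columns, from 0.94 to 1.63, Elovl6 is dark blue in the 11 week airway HDM columns, at -1.88 and -1.76, and the column for DEX in PBS.AIR is red in 17 dotted genes of each tissue.

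Genes of neighbouring pathways, listed with the members, were read from the same fits. Of 12 genes of sterol efflux and the liver X receptors, 11 rose and 1 fell in airway and 10 rose and 1 fell in parenchyma with 3 weeks of HDM, where 74.6% and 77.7% of all genes passed and 34.1% and 33.4% rose. The largest rises were those of Ch25h, which makes 25-hydroxycholesterol, with a log2FC of 2.55 and 3.42, and Apoe, the lipid carrier, with 1.49 and 2.82. Cyp27a1, a sterol 27-hydroxylase, fell by a log2FC of -1.21 and -1.13. In HDM.AIR 9 rose and 1 fell in airway and 7 rose and 1 fell in parenchyma, where 61.1% and 59.5% of all genes passed. With DEX in PBS.AIR 5 rose and 2 fell in airway and 5 rose and 3 fell in parenchyma, where 14.9% and 22.6% of all genes passed, with Abca1, the cholesterol exporter, at -0.37 and -1.04. Of 8 other genes of sterol synthesis and SREBP processing, 3 rose and 1 fell in airway and 2 rose and 1 fell in parenchyma with 3 weeks of HDM, 50% and 37.5% of that list, which is below the shares of all genes at 3 weeks. In HDM.AIR 3 of these 8 rose and 3 fell in airway, 75% against 61.1% of all genes. In parenchyma 2 rose and 3 fell, 62.5% against 59.5%. At 3 weeks Soat1, which esterifies cholesterol, rose by 0.56 and 0.59, Scap, the escort of the SREBPs, by 0.29 in each, and Insig2 fell by a log2FC of -0.27 and -0.46. Of 14 other fatty acid genes tested, 2 rose and 10 fell in airway and 3 rose and 6 fell in parenchyma, 85.7% and 64.3% of those tested. Thrsp, a lipogenic protein, fell by a log2FC of -2.59 and -1.91, Mlxipl, the carbohydrate response factor, by -2.03 and -2.21, and Fads2, a fatty acid desaturase, rose by 0.79 and 1.44. Over the lists, the median log2FC was 0.47 and 0.48 for sterol efflux and -0.56 and -0.28 for the other fatty acid genes, beside -0.07 and -0.13 for all genes.

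Within groups, libraries that were high for Idi1 tended to be high for Hmgcs1, Sqle, Mvd and Dhcr7. The deviations of log2(CPM + 0.5) from the group means were correlated over the libraries of each tissue, for 24 pairs of measures, with a two-sided permutation test that kept libraries within their group. Its smallest possible p is 1e-05, and the Benjamini-Hochberg adjusted p-values are over the 24 pairs. Idi1 and Hmgcs1 had Pearson's r = 0.79 and Spearman's rho = 0.755 in airway and r = 0.861 and rho = 0.857 in parenchyma, each with permutation p = 1e-05 and adjusted p = 1e-05. Without the 2 libraries farthest from the median of Idi1, r was 0.767 and 0.841. Idi1 and Sqle were as close, with r = 0.824 and rho = 0.813 in airway and r = 0.862 and rho = 0.846 in parenchyma, all at the smallest permutation p, and r = 0.797 and 0.84 without the 2 farthest. Idi1 and Mvd had r = 0.785 and rho = 0.772 in airway and r = 0.73 and rho = 0.719 in parenchyma, at the same p. Mvd and Dhcr7 had r = 0.824 and rho = 0.796 in airway and r = 0.529 and rho = 0.488 in parenchyma, at the same permutation p, and r = 0.785 and 0.49 without the 2 farthest libraries. Idi1 and Dhcr7 had r = 0.727 and rho = 0.722 in airway and r = 0.41 and rho = 0.374 in parenchyma, with permutation p = 0.0003 and 0.0004 in parenchyma (adjusted 0.0004 and 0.0005) and r = 0.377 there without the 2 farthest.

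Fasn followed Acaca in both tissues, and Fasn and Elovl6 followed the adipose markers in airway. Fasn and Acaca had r = 0.941 and rho = 0.903 in airway and r = 0.821 and rho = 0.814 in parenchyma, with permutation p = 1e-05. Elovl6 and the summed adipose level had r = 0.87 and rho = 0.846 in airway, with permutation p = 1e-05 and r = 0.854 without the 2 farthest libraries, and r = -0.289 and rho = -0.242 in parenchyma, with permutation p = 0.0044 and 0.0181 (adjusted 0.00503 and 0.0207). Fasn and adipose had r = 0.709 and rho = 0.652 in airway and r = 0.007 and rho = 0.045 in parenchyma, with permutation p = 0.95 and 0.667 there, and r = 0.673 in airway without the 2 farthest. With the summed alveolar type II level, Mvd had r = 0.645 and rho = 0.624 in airway and r = 0.574 and rho = 0.505 in parenchyma, all at permutation p = 1e-05, and r = 0.589 and 0.533 without the 2 farthest. Dhcr7 had r = 0.58 and rho = 0.558 in airway and r = 0.247 and rho = 0.207 in parenchyma, with permutation p = 0.0239 and 0.0489 in the latter (adjusted 0.026 and 0.0534). Hmgcs1 had r = 0.376 and rho = 0.325 in airway and r = 0.402 and rho = 0.319 in parenchyma, with permutation p = 0.0002 and 0.00179 in airway and 4e-05 and 0.00161 in parenchyma. Scd2 had r = 0.775 and rho = 0.756 in airway and r = 0.04 and rho = 0.078 in parenchyma, with permutation p = 0.703 and 0.452. Values compared here come from the same library, and no cause was tested.

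**Figure D5:**
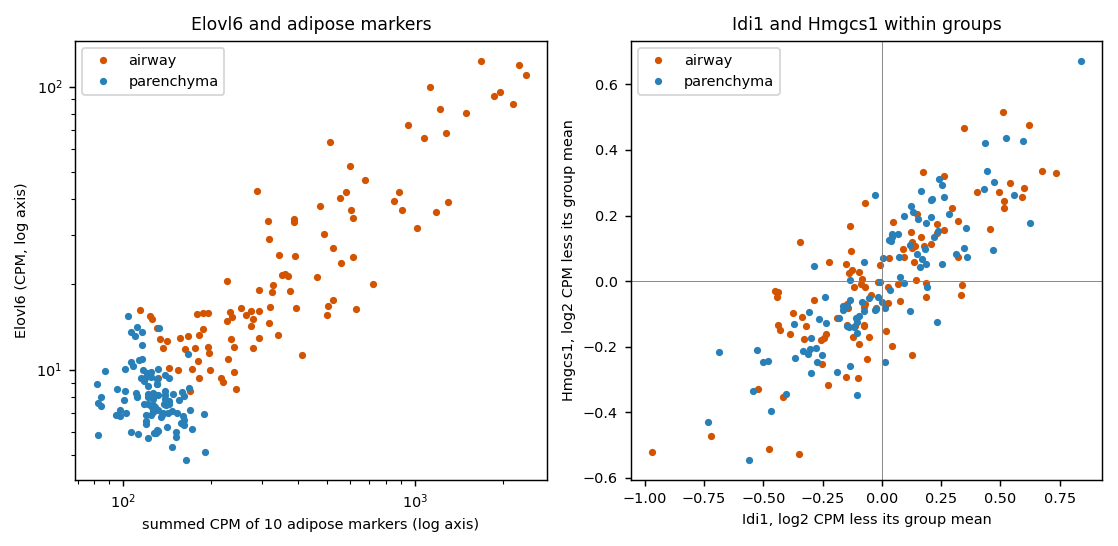
Left, level of Elovl6 (CPM, log axis) against the summed level of 10 adipose markers (CPM, log axis) in each airway (orange) and parenchyma (blue) library, without removing group means. Right, Idi1 and Hmgcs1 as log2 CPM less the group mean in the same libraries, where r was 0.79 in airway and 0.861 in parenchyma.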

How the data were processed

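Per the labels, the authors sequenced 100 base single reads, and the submitters' processing notes name bcl2fastq 2.20.0.422, STAR 2.5.1b, RSEM 1.2.31 and kallisto 0.44.0 with mm10 and GENCODE M21. Which tool made the table, and whether strand was used, is not given in the sources used here. The authors deposited estimated counts per Ensembl gene (20.3% of values above 0 were not whole), which were rounded. Identifiers were matched to M21 without their version, and 42462 of 43346 had a symbol. Every column was mapped to a sample.

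Genes were kept where at least 9 libraries reached the CPM that equals 10 counts in the median library. TMM scaling (edgeR 4.0.16) and limma-voom (limma 3.58.1, R 4.3.3) were applied to 17377 genes at 3 weeks, 18250 at 11 weeks and 18528 over all libraries for differences between weeks, with Benjamini-Hochberg adjustment over all genes of each comparison and a threshold of 0.05. CPM levels used one TMM scaling over all libraries. No block was used, except in an added alternative with the running codes of the libraries in pairs, airway with parenchyma. In all, 32 comparisons were made, 4 of them added after the values had been seen. The correlations with the alveolar type II sum were also chosen after the data were seen. By rule, the text names for each comparison the members that passed with an absolute log2FC over 1, otherwise the 3 largest rises and the 3 largest falls that passed, and up to 3 genes of each neighbouring pathway; other members, and Scap, Insig2, Abca1 and Fads2, were named after their values were seen. edgeR's quasi-likelihood test, DESeq2 1.42.0 and other filters, weights and sets of libraries were tried as alternatives, and the code was tested on simulated data. The 27 genes and the lists were chosen with earlier results of these data known. Exact read sharing between related genes such as Scd1 and Scd2 was not examined.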

Additional observations from a re-analysis of the deposited data

Results flagged for a closer look

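Of 486 sets of 10 libraries (27 genes in 18 groups), 42 (8.64%) held a library far from the others by Dixon's 95% criterion, 41 times the highest and 1 time the lowest, in 18 libraries. For independent sets of normally distributed values chance gives about 1 in 20. The criterion was applied to CPM without a log, and 14 of the flags came from 1 library, so the share cannot be judged against that rate.

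Parenchyma HDM.CS.DEX replicate 8 stood above its group for 14 genes, with Hmgcs1 at 264.7 CPM, Mvk at 32.66, Pmvk at 118.5, Mvd at 39.48, Idi1 at 260.4, Fdps at 154.5, Fdft1 at 95.08, Sqle at 88.71, Lss at 55.49, Cyp51 at 92.01, Nsdhl at 49.26, Hsd17b7 at 32.18, Stard4 at 79.48 and Elovl6 at 13.98 CPM. Its summed cell cycle level was 333.5 CPM against a group median of 50.75 CPM. Parenchyma PBS.AIR replicate 1, a control, was highest for Pmvk (44.83 CPM), Idi1 (196.5), Cyp51 (52.82) and Nsdhl (30.91).

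Among the fatty acid genes, airway HDM.CS replicate 7 was highest for Acly (361.8 CPM), Acaca (149.1), Fasn (594.2) and Elovl6 (42.53), and airway HDM.CS.DEX replicate 2 for Acaca (212.6 CPM), Fasn (761.1) and Elovl6 (46.61). Acly was highest in airway PBS.AIR replicate 1 (445.5 CPM) and in 3 week parenchyma HDM replicate 2 (223.1 CPM), where Srebf2 was also highest (142.3 CPM). Fasn was highest in parenchyma HDM.AIR.DEX replicate 2 (767.0 CPM), the shallowest library.

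The other outlying libraries were airway HDM.AIR replicate 6 for Hmgcs1 (175.1 CPM) and Fdft1 (60.45), airway HDM.CS.DEX replicate 8 for Pmvk (57.11) and Hsd17b7 (24.47), parenchyma HDM.AIR.DEX replicate 8 for Pmvk (57.2), parenchyma HDM.AIR replicate 8 for Dhcr7 (63.65), airway PBS.AIR.DEX replicate 2 for Mvk (24.57), parenchyma PBS.AIR.DEX replicate 2 for Cyp51 (59.9), airway HDM.CS replicate 10 for Idi1 (150.2), parenchyma PBS.CS replicate 9 for Ebp (56.63), parenchyma PBS.CS.DEX replicate 3 for Tm7sf2 (20.43), airway HDM.AIR.DEX replicate 5 for Insig1 (122.01) and, as the lowest, parenchyma HDM.CS replicate 9 for Srebf2 (89.02).

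Effects that differed between groups by a test of the difference, in log2FC, were as follows. Airway less parenchyma, the HDM effect differed at 3 weeks for Elovl6 (-1.01) and at 11 weeks for Elovl6 (-2.16), Fasn (-1.14), Scd1 (-1.12) and Acaca (-1.03), and the CS effect for Ebp (-0.43). The HDM effect with smoke less that with air differed in airway for Mvd (-0.80), Cyp51 (-0.62) and Dhcr7 (-0.62) and in parenchyma for Mvd (-1.05) and Scd1 (-1.08). The DEX effect in HDM.AIR less that in PBS.AIR differed in airway for Cyp51 (-0.56), Hmgcs1 (-0.51) and Sc5d (-0.49) and in parenchyma for Sqle (-0.54), Nsdhl (-0.47) and Sc5d (-0.40). The HDM effect at 11 weeks less that at 3 weeks differed in airway for Elovl6 (-1.57) and in parenchyma for Scd1 (0.79), Ebp (0.24), Srebf2 (-0.68), Nsdhl (-0.68) and Hsd17b7 (-0.63).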

How the results depend on the processing

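Of 316 alternative values of the 32 counts of members that passed, 283 stayed within 1.5 times the count reported, and of 916 alternative values of 65 named differences, 886 kept their side of the threshold, 30 did not pass and 0 changed sign. Without the adipose-rich libraries, the count was 7 for HDM.AIR in airway, 2 for PBS.CS in airway, 4 for HDM.CS against PBS.AIR in airway, 4 for DEX in HDM.AIR in parenchyma, 3 for DEX in PBS.CS in airway, 4 for DEX in HDM.CS in airway, 5 for the tissue difference in the HDM effect at 11 weeks and 0 for the difference in DEX effect between HDM.AIR and PBS.AIR in airway. With sample quality weights it was 18 for PBS.CS in parenchyma, 6 for HDM.CS against PBS.AIR in airway, 1 for HDM.CS against HDM.AIR in airway and 4 in parenchyma, 5 for DEX in HDM.AIR in airway and 1 in parenchyma, 18 for DEX in PBS.CS in parenchyma, 1 for DEX in HDM.CS in airway and 1 for the difference in DEX effect between PBS.CS and PBS.AIR in parenchyma. With no filter on low counts it was 5 for PBS.CS in airway, 6 for HDM.CS against PBS.AIR in airway, 3 for DEX in PBS.CS in airway and 4 in parenchyma, and 2 for the difference in DEX effect between HDM.AIR and PBS.AIR in airway. With all libraries in one fit it was 3 for the tissue difference in the HDM effect at 3 weeks, 8 for the tissues in PBS mice at 3 weeks, 5 for DEX in HDM.AIR in airway and 4 in parenchyma, and 2 for the difference in DEX effect between HDM.AIR and PBS.AIR in airway. With CPM of at least 10 in 9 libraries it was 10 for the tissue difference in the HDM effect at 3 weeks. Chosen after seeing the data, leaving out the airway libraries close to parenchyma gave 5 for DEX in HDM.AIR in airway and 2 for the difference in DEX effect there, and leaving out the shallowest library gave 4 for DEX in PBS.CS in airway. The causes of these shifts were not tested.

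As each 3 week library was left out, the counts ran from 15 to 19 for HDM in airway, 14 to 21 in parenchyma, 4 to 11 for the tissue difference in the HDM effect and 9 to 15 for the tissues in PBS mice. Without parenchyma PBS.AIR replicate 1 they were 15 for HDM.AIR, 13 for HDM.CS, 12 for PBS.CS, 16 for DEX in PBS.AIR and 11 for the interaction in parenchyma, 11 for the tissues in PBS.AIR, 8 for the tissue difference in the HDM effect, 1 for that in the CS effect, 0 for that in the DEX effect, 5 for the difference in DEX effect between HDM.AIR and PBS.AIR and 0 for that between PBS.CS and PBS.AIR. Without parenchyma HDM.CS.DEX replicate 8 the count for DEX in HDM.CS was 0. The labels carry no replicate number, mouse or litter that ties libraries of different groups, but consecutive running codes in the sample titles hold an airway and a parenchyma library of the same group in 21 pairs at 3 weeks, with 1 library alone, and 80 pairs at 11 weeks. Whether a pair is from 1 mouse is not given. A fit with these pairs as a replicate block, chosen after seeing the data, had a correlation within pairs of 0.127 at 3 weeks and 0.349 at 11 weeks. It gave 15 for the tissues in PBS mice at 3 weeks and 16 in PBS.AIR, 6 and 10 for the tissue difference in the HDM effect, 3 for that in the CS effect and 1 for that in the DEX effect, and no named difference lost its call. The 10 to 12 libraries per group and a median of 28090684 counts set the precision.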
